A study of Mus musculus with 35 samples.

Results

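The genes examined here are the 2 Notch receptors, the proteases that cut them, the nuclear proteins that carry their signal and a short set of regulators and targets, namely Notch1, Notch2, Hes1, Rbpj, Maml1, Dtx3, Adam10, Adam17 and Ncstn. Of these 9 genes, 8 were listed among the 11982 gene names of the expression table and all 8 were among the 11863 genes tested, those whose RPKM averaged 0.5 or more over the libraries. RPKM counts reads after division by the length of the gene model and by the library's mapped reads, so levels can be set side by side between genes. Hes1, a repressor that Notch signalling induces, was not analysed here.

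The study used bone marrow hematopoietic stem/progenitor cells (HSPCs) of wild-type (WT) mice and of mice lacking JMJD1B (JMJD1B-/-), a histone demethylase encoded by Kdm3b, with 2 biological replicates per genotype and 1 RNA-seq library from each. All mice were of the 129P2xC57BL/6J strain, the knockout is a gene-trap allele brought in through embryonic stem cells and carried by every cell of the animal, and no other allele or treatment is given. Adult mice of both sexes were used in the study, with the age and sex of each library not given. The comparison asks which transcripts of the pathway differed when the demethylase was missing, and Notch1 is a gene at whose promoter the study examined H4R3me2s and H3K9me2, the marks that JMJD1B removes; those chromatin data were not analysed here.

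Notch receptors are cleaved by furin on their way to the surface, where ligands of the Delta and Jagged families on a neighbouring cell bind them. Binding exposes the receptor to ADAM10 or ADAM17, then to gamma-secretase, in which nicastrin (Ncstn) is the substrate-receiving subunit, and the freed intracellular domain enters the nucleus, joins the DNA-binding protein RBPJ and recruits Mastermind-like coactivators such as MAML1. In blood formation Notch1 is best known for directing lymphoid progenitors into the T lineage, while Notch2 acts in marginal zone B cells and in stem cell recovery.

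The sequences just upstream of the 2 receptor genes are shown first, because the study examined chromatin at the Notch1 promoter and Notch2 is its nearest relative among the members. Each run is the 250 bases before the annotated start, 5′ to 3′ on the strand of the gene, taken from RefSeq on GRCm38.p6. The Notch1 window lies at chr2:26503823-26504072 on the minus strand and the Notch2 window at chr3:98013288-98013537 on the plus strand. Capitals mark each CG dinucleotide.
Notch1: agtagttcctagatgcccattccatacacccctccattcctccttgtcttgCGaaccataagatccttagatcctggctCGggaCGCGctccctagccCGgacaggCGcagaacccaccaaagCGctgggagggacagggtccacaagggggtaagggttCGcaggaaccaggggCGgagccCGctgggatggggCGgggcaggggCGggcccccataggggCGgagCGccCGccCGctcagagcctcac
Notch2: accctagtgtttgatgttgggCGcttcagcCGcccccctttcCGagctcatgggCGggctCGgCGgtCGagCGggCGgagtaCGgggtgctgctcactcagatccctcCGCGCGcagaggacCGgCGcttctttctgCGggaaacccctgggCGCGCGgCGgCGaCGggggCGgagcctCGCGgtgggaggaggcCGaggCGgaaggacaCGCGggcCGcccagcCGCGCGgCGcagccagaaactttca
The Notch1 window held 16 CG dinucleotides and the Notch2 window 34, at a G+C content of 66.0% and 72.0%. The median over the 32851 promoter windows in the RefSeq table was 6, and 25.4% of windows held at least 16 and 3.53% at least 34. Of the 9 members, 7 had a promoter entry, and Hes1 and Dtx3 had none.

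The gene-trapped locus was examined first. Kdm3b was listed at 31.0 and 24.3 RPKM in WT replicates 1 and 2, and at 4.00 and 4.63 RPKM in JMJD1B-/- replicates 1 and 2. Both knockout libraries were far below both WT libraries, at 15.6% of the WT mean, with a log2 fold change of -2.65 (SE 0.24, adjusted p = 0.0314 by limma), so the labels held for all 4 libraries. Sequencing depth relative to WT replicate 1, estimated from the steps between low values, was 1.4 for WT replicate 2, 0.349 for JMJD1B-/- replicate 1 and 1.2 for JMJD1B-/- replicate 2. At these depths 88 to 118 of 1669 to 1786 low genes lay on whole-number ratios, against 12 to 15 at the median of the depths tried. Of 62 genes on whole numbers in the other libraries, 46 were so in JMJD1B-/- replicate 1. That library, the shallowest by this estimate, also stood apart in its entries at 0 RPKM, 156 against 43 to 53 in the other libraries. Xist, the X inactivation transcript of female cells, was listed at 332 RPKM in WT replicate 2 and at 0 to 0.0510 RPKM in the other libraries. The WT pair was thus mixed for this transcript, and both JMJD1B-/- libraries were near 0. The part of sex in the levels below was not tested. The 10 stem and progenitor markers, all listed, summed to 252 to 291 RPKM in WT and 158 to 207 RPKM in JMJD1B-/- libraries. Of the markers of other blood cells, erythroid genes summed to 234 to 343 RPKM in WT and 585 to 1162 RPKM in JMJD1B-/-, granulocyte genes to 186 to 274 and 55.2 to 85.0 (a list that split, with 5 of its 10 genes below both WT libraries and 3, Ltf, S100a8 and S100a9, above), monocyte and macrophage genes to 33.1 to 54.2 and 15.5 to 38.6, megakaryocyte genes to 637 to 695 and 271 to 391, and basophil and mast cell genes to 488 to 560 and 45.9 to 111. B cell markers were at 4.81 to 5.21 RPKM in WT and 0.980 to 3.49 RPKM in JMJD1B-/- over the 3 of 10 listed, and stroma and endothelium markers at 45.1 to 73.0 and 14.2 to 27.1. The part of these shifts in the levels below was not tested. In bulk RNA, fewer cells of a type and less RNA per cell cannot be told apart.

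None of the 8 members passed the test at an unadjusted p of 0.05 in limma, and none passed after adjustment. Across all 11863 genes, 6.33% (751) were lower and 3.81% (452) higher in JMJD1B-/- HSPCs at that unadjusted threshold, 10.1% in either direction, and 0.0421% (5 genes) passed after Benjamini-Hochberg adjustment. Fold changes were split evenly, with 4 members on the lower and 4 on the higher side. Their median log2 fold change of -0.033 lay beside -0.025 for all genes. A single member, Notch1, had both knockout libraries below both WT libraries, against 22.7% of all genes below and 20.1% above. The other 7 overlapped between genotypes.

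**Figure D1:**
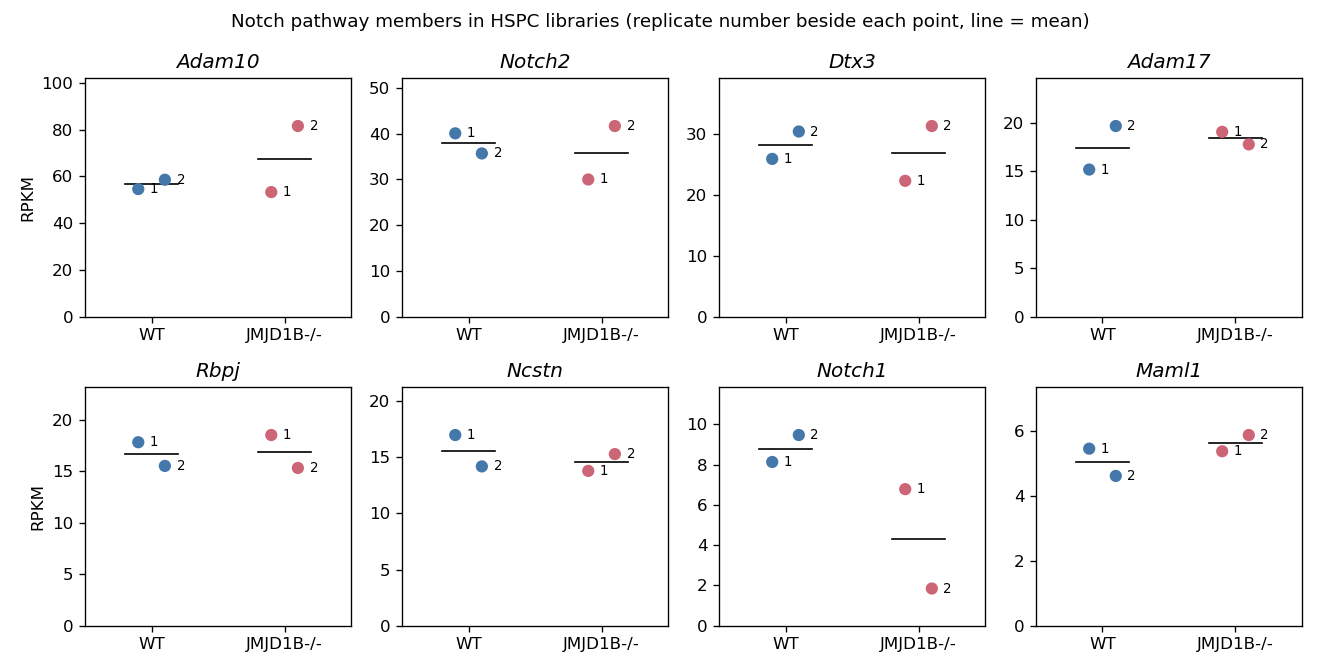
RPKM (vertical axes, from 0, each panel on its own scale) of the 8 listed members in the 2 WT and 2 JMJD1B-/- HSPC libraries, with the replicate number beside each point and a line at each mean. Notch1 is the panel in which both knockout points, 6.78 and 1.84 RPKM, lie below both WT points, while the points of the other 7 genes overlap between genotypes.

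Notch1, the receptor that sets T-lineage fate, was listed at 8.13 and 9.47 RPKM in the WT libraries and at 6.78 and 1.84 RPKM in the JMJD1B-/- libraries. Replicate 1 of the knockout was thus close to WT and replicate 2 was low. Group means were 8.80 ± 0.945 RPKM (SD, n = 2) in WT and 4.31 ± 3.49 RPKM (SD, n = 2) in JMJD1B-/- HSPCs, with knockout replicate 1 at 77.0% and replicate 2 at 20.9% of the WT mean. The log2 fold change was -1.28 (SE 0.55, 95% interval -2.57 to 0.0046, unadjusted p = 0.0506, adjusted p = 0.491 by limma), which did not pass. With every library kept, the unadjusted p over the alternatives ran from 0.00578 with the replicate block in limma to 0.298 in the gene-by-gene test. None of these passed after adjustment. The knockout libraries differed from each other by 1.82 on the log2 scale, a gap that 5.19% of all genes exceeded, whereas the WT gap of 0.22 in size was exceeded by 50.4%. JMJD1B-/- replicate 2 decided the value. Without it the log2 fold change of Notch1 was -0.37 (unadjusted p = 0.182 by limma), and without JMJD1B-/- replicate 1 it was -2.19 (adjusted p = 0.00224 by limma, with the spread taken from the WT pair alone). Marker sums also differed between replicates 2 and 1 of the knockout. They were 1162 and 585 RPKM for erythroid genes, 55.2 and 85.0 for granulocyte genes and 45.9 and 111 for basophil and mast cell genes. B cell genes were at 0.980 and 3.49, monocyte and macrophage genes at 15.5 and 38.6, and stroma and endothelium genes at 14.2 and 27.1. Stem and progenitor genes, at 207 and 158, and megakaryocyte genes, at 391 and 271, lay nearer to WT in replicate 2. T and NK genes were at 48.9 and 116, beside 62.1 and 65.3 in WT. Flt3, a receptor of multipotent and lymphoid progenitors, was at 25.1 and 32.6 RPKM in WT, 18.4 in knockout replicate 1 and 3.37 in replicate 2, and Pecam1 at 34.0, 33.9, 19.5 and 7.97 RPKM in the same order; the part of these shifts in the Notch1 level was not tested.

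Notch2, the more abundant receptor, was listed at 40.1 and 35.7 RPKM in WT and at 30 and 41.7 RPKM in JMJD1B-/- HSPCs. The knockout libraries lay on either side of the WT pair, and the log2 fold change of -0.10 (SE 0.22, 95% interval -0.60 to 0.41) did not pass (adjusted p = 0.910 by limma). The ratio of Notch2 to Notch1 RPKM was 4.93 and 3.77 in the WT libraries, 4.42 in JMJD1B-/- replicate 1 and 22.6 in JMJD1B-/- replicate 2. Notch1 made up 16.9% and 21.0% of the summed RPKM of both receptors in WT, 18.4% in knockout replicate 1 and 4.23% in knockout replicate 2, so that one library stood apart in receptor composition. The sum itself ran from 36.8 to 48.2 RPKM. Notch3 and Notch4, the receptors of vascular smooth muscle and endothelium, were not analysed here.

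The 5 genes whose pattern over the 4 libraries lay nearest to that of Notch1 were Kmo, Gpr171, Kcng1, Pld4 and Gpr65. Nearness was the Euclidean distance between centred log2(RPKM + 0.1) values, from 0.077 for Kmo to 0.174 for Gpr65 among 11862 genes. Kmo, a kynurenine-pathway enzyme, was listed at 9.48 and 10.9 RPKM in WT and at 7.59 and 2.01 RPKM in JMJD1B-/- libraries. Gpr171, a G protein-coupled receptor, was at 14.8, 17.3, 11.1 and 3.19 RPKM in the same order. All 5 shared the position of knockout replicate 2 as the lowest library, which the measure itself selects for.

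The proteases that open the receptor showed no difference beyond the replicate spread. Adam10, the main ligand-dependent sheddase, was the most abundant member, at 54.6 and 58.6 RPKM in WT and 53.3 and 81.6 RPKM in JMJD1B-/- HSPCs. Its high value came from knockout replicate 2, and the log2 fold change of 0.22 (SE 0.23, 95% interval -0.32 to 0.76, adjusted p = 0.774 by limma) became -0.084 without that library. Without knockout replicate 1 it was 0.53. Adam17, the TACE protease that also sheds TNF, was listed at 15.2 and 19.7 RPKM in WT and at 19.1 and 17.8 RPKM in the knockout, inside the WT range (log2 fold change 0.093, 95% interval -0.42 to 0.60). Ncstn was at 17.0 and 14.2 RPKM in WT and at 13.8 and 15.3 RPKM in the knockout (log2 fold change -0.10, 95% interval -0.60 to 0.40). Adam10 exceeded Adam17 by 2.79 to 4.58 times in every library.

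The nuclear members and Dtx3 were also close between genotypes. Rbpj, the DNA-binding partner of all Notch receptors, was listed at 17.8 and 15.5 RPKM in WT and at 18.5 and 15.3 RPKM in JMJD1B-/- HSPCs (log2 fold change 0.02, SE 0.21, 95% interval -0.48 to 0.52, adjusted p = 0.986 by limma). Each genotype had one library near 18 and one near 15 RPKM. Maml1, the coactivator, was the least abundant member in WT at 5.45 and 4.61 RPKM, beside 5.37 and 5.87 RPKM in the knockout (log2 fold change 0.16, 95% interval -0.50 to 0.82). Dtx3, a Deltex-family ubiquitin ligase, was at 25.9 and 30.4 RPKM in WT and at 22.3 and 31.3 RPKM in the knockout, whose libraries spanned the WT pair (log2 fold change -0.086, 95% interval -0.62 to 0.45). For the 7 members other than Notch1, standard errors were 0.21 to 0.28 and the intervals of the log2 fold change lay between -0.62 and 0.82, so differences of either sign within those intervals were left unresolved by 2 libraries per genotype.

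By WT mean level the order was Adam10, Notch2, Dtx3, Adam17, Rbpj, Ncstn, Notch1 and Maml1. Among neighbours in that order, Adam17 and Rbpj overlapped between WT libraries, as did Rbpj and Ncstn. In JMJD1B-/- HSPCs the overlapping neighbours were Notch2 with Dtx3, Adam17 with Rbpj, and Notch1 with Maml1. Notch1 and Maml1 were apart in WT, at 8.13 and 9.47 RPKM against 5.45 and 4.61, and in knockout replicate 2 Notch1 at 1.84 RPKM lay below Maml1 at 5.87.

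The wider pathway was described from lists of 67 further genes by role, of which 53 were listed and 52 tested. Of these, 3 fell and 2 rose at an unadjusted p of 0.05 (9.62%, against 10.1% of all genes), none passed after adjustment (lowest adjusted p = 0.372 by limma), and the median log2 fold change was -0.089. Both knockout libraries lay below both WT libraries for 12 genes (23.1%) and above for 14 (26.9%), beside 22.7% and 20.1% of all genes. The calls rested on the libraries used: without WT replicate 1 the number of pathway genes passing was 0, without WT replicate 2 it was 1 (L3mbtl3), without JMJD1B-/- replicate 1 it was 6 and without JMJD1B-/- replicate 2 it was 14.

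**Figure D2:**
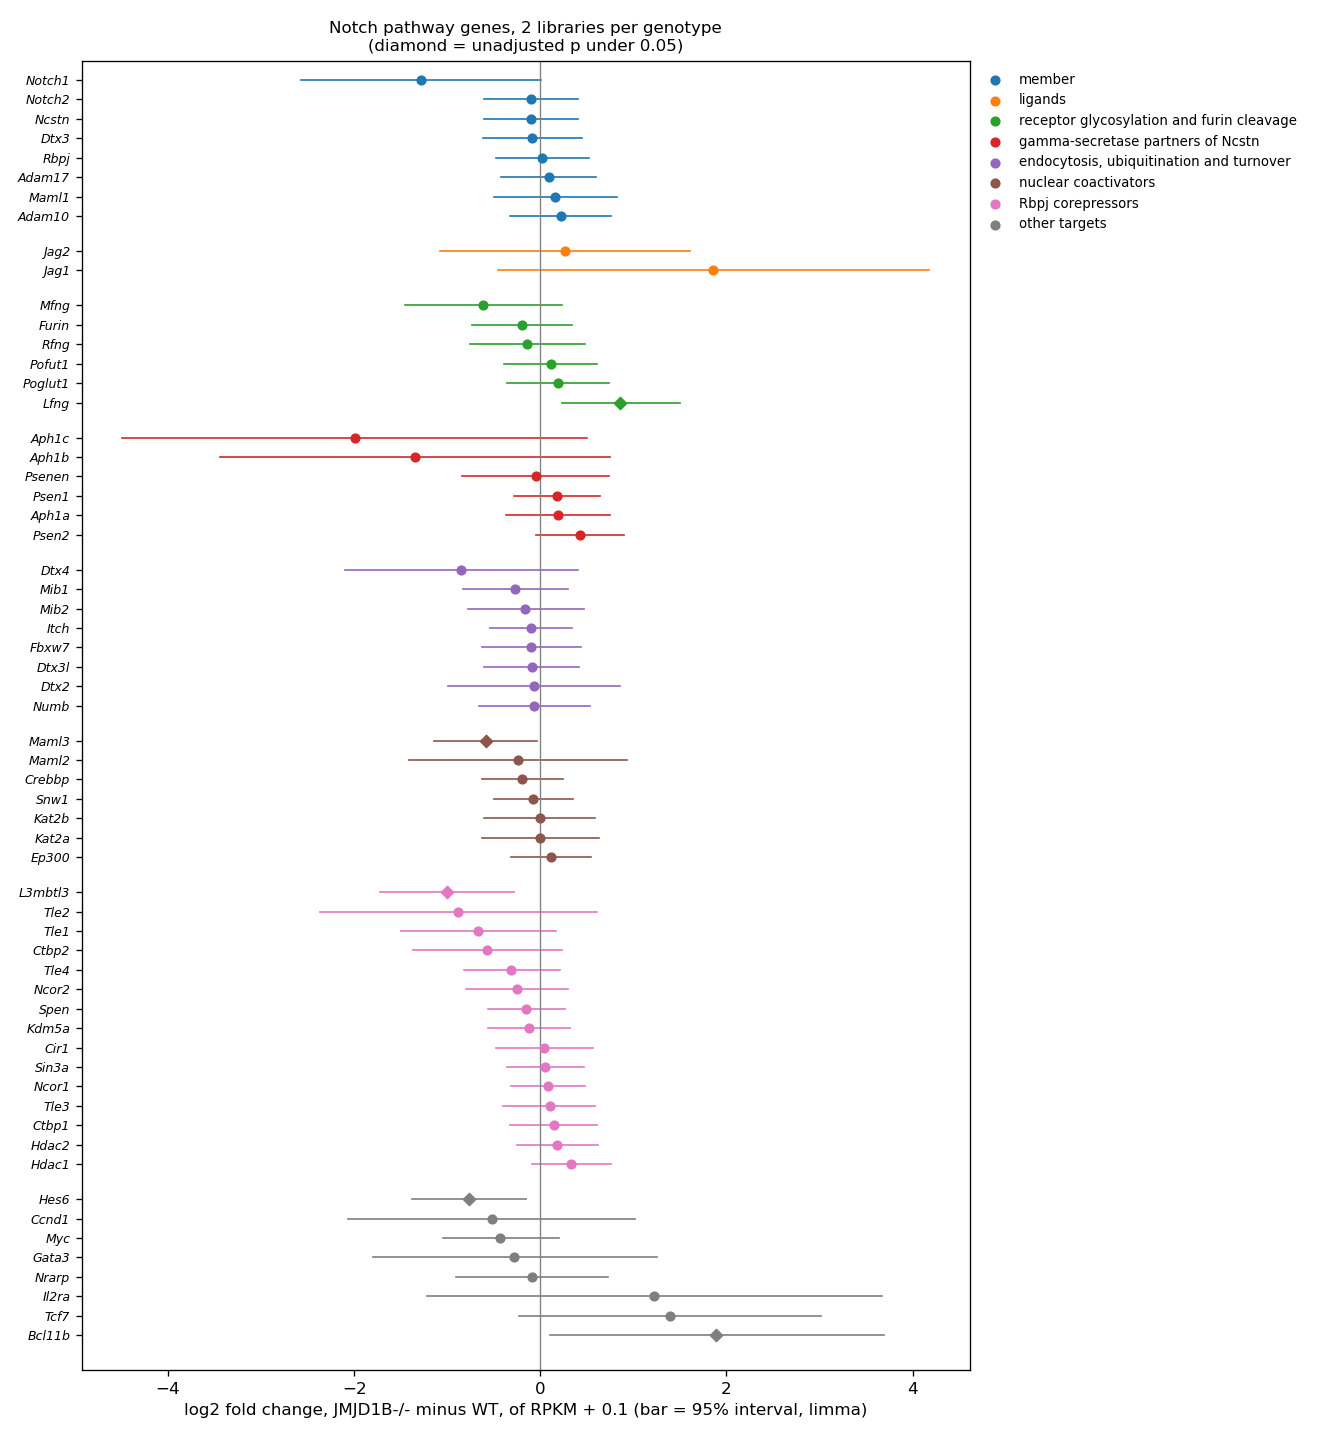
Log2 fold change of RPKM + 0.1, JMJD1B-/- minus WT (horizontal axis), with the 95% limma interval as a bar, for the 8 members and 52 other Notch pathway genes, coloured by role. Diamonds mark the 5 genes with an unadjusted p under 0.05, namely Lfng, Maml3, L3mbtl3, Hes6 and Bcl11b, and the interval of Notch1 ends at 0.0046.

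Few ligand genes were seen. Of 6 ligand genes 2 were listed, Jag2 and Jag1, and neither passed the test. Jag2 was at 1.01 and 1.01 RPKM in WT and 1.18 and 1.30 RPKM in JMJD1B-/- HSPCs (log2 fold change 0.27, 95% interval -1.08 to 1.61). Jag1, named after its values were seen, was at 0.208 and 0.155 RPKM in WT and 1.33 and 0.626 RPKM in the knockout, both higher, with a log2 fold change of 1.86 (95% interval -0.45 to 4.18, unadjusted p = 0.0997 by limma). A gene was listed only if it reached 1 RPKM in some library. Jag1 did so only in JMJD1B-/- replicate 1, which favours this direction. It was called with quantile normalization, in limma without a trend and without JMJD1B-/- replicate 2. Of the 6 genes that glycosylate or pre-cut the receptor, all listed, 1 passed (16.7%, against 10.1% of all genes). Lfng, the Fringe glycosyltransferase that tunes which ligands a Notch receptor answers to, was listed at 5.38 and 5.28 RPKM in WT and at 11.4 and 8.39 RPKM in the knockout. The knockout libraries were both higher, with a log2 fold change of 0.86 (SE 0.27, 95% interval 0.23 to 1.5, unadjusted p = 0.0144, adjusted p = 0.389 by limma) that ran from 0.65 to 1.08 when one library was left out. The call was lost without WT replicate 1 (unadjusted p = 0.0816 by limma) and without WT replicate 2 (unadjusted p = 0.087 by limma). Mfng, a second Fringe named after its values were seen, was at 11.7, 6.74, 4.62 and 7.21 RPKM, overlapping between genotypes (unadjusted p = 0.131 by limma), and the ratio of Lfng to Mfng was 0.461 and 0.783 in WT and 2.46 and 1.16 in the knockout. Pofut1, which adds the O-fucose that Fringe extends, was the most abundant of this role at 12.2 and 12.3 RPKM in WT and 12.5 and 14.0 RPKM in the knockout.

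The window upstream of Lfng is shown because it held the letters TGGGAA, the core bound by RBPJ, searched on both strands (TTCCCA on the printed strand is the reverse). It lies at chr5:140607091-140607340 on the plus strand of GRCm38.p6, and capitals mark the 2 matches, whose first bases are 135 and 108 bases before the start.
Lfng: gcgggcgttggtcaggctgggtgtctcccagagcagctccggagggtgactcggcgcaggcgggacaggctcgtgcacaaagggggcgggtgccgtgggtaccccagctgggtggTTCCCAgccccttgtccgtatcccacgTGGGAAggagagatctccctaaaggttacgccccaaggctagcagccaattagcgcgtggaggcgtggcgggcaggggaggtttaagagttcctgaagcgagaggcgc
Over all RefSeq windows of this length, 21.6% held at least 1 match and 2.77% held 2 or more. Of the 7 members with a promoter entry 1, Rbpj, held a match, with 2 in the first of its 2 windows, as for Lfng, of which 1 also lies in the second, overlapping window, and neither receptor window shown above held one. Of the 5 pathway genes that passed at the unadjusted threshold 2 held a match, Lfng and Maml3, the latter 185 bases before its start. A match is a stretch of letters and not a site shown to be bound.

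Of the 6 gamma-secretase partners of Ncstn, all listed, none passed. Psenen, the presenilin enhancer, was the most abundant at 15.6 and 28.7 RPKM in WT and 16.4 and 25.6 RPKM in the knockout (log2 fold change -0.048, 95% interval -0.84 to 0.74). Psen2, a catalytic subunit named after its values were seen, was at 14.2 and 14.2 RPKM in WT and 18 and 20.4 RPKM in the knockout (log2 fold change 0.43, unadjusted p = 0.0681 by limma). It was called with median-ratio scaling, with quantile normalization, in the gene-by-gene test and without JMJD1B-/- replicate 1. Aph1b and Aph1c, also named after their values were seen, were lower in each knockout library than in either WT library. Aph1b was at 0.726 and 1.01 RPKM in WT and 0.251 and 0.302 RPKM in the knockout, and Aph1c at 0.675, 1.16, 0.0631 and 0.278 RPKM in the same order. Both reached the 1 RPKM needed for listing only in WT replicate 2, which favours this direction. Their log2 fold changes of -1.35 (95% interval -3.44 to 0.75) and -1.99 (95% interval -4.49 to 0.50) did not pass, though both genes were called in limma without a trend, Aph1b also in the gene-by-gene test and Aph1c also without JMJD1B-/- replicate 2. They are close paralogs whose shared reads could have been split between them.

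Of the 11 genes of endocytosis, ubiquitination and turnover, 9 were listed and 8 tested. All 8 log2 fold changes were on the lower side, from -0.85 to -0.064, but none passed and 7 overlapped between genotypes; of all 11863 genes, 6285 were on the lower side and 6778 overlapped. Mib1, the ligase that drives ligand endocytosis, was the most abundant at 45.1 and 40.3 RPKM in WT and 28.4 and 44.1 RPKM in the knockout (log2 fold change -0.27, 95% interval -0.83 to 0.30). The Mib1 fold change depended on the knockout library, at 0.05 without replicate 1 and -0.58 without replicate 2. Dtx1, a Deltex gene induced by Notch, had a value of 0 in each WT library and of 1.51 and 0.414 RPKM in the knockout libraries, below the filter and without a test. It reached the 1 RPKM needed for listing only in JMJD1B-/- replicate 1, which favours a higher knockout value.

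Of 7 coactivator genes 1 passed (14.3%, against 10.1% of all genes). Maml3, a Mastermind-like coactivator, was listed at 11.7 and 10.1 RPKM in WT and at 7.16 and 7.25 RPKM in the knockout, whose libraries were alike and both lower (log2 fold change -0.58, SE 0.24, unadjusted p = 0.0414, adjusted p = 0.477 by limma). The call was lost with the replicate block (unadjusted p = 0.0622), without WT replicate 1 (0.263) and without WT replicate 2 (0.122), all by limma. Snw1, the most abundant, was at 46.5 and 48.6 RPKM in WT and 41.4 and 49.2 RPKM in the knockout. Of the 15 corepressor genes, all listed, 1 passed (6.67%, against 10.1%). L3mbtl3, a methyl-lysine reader that binds RBPJ and recruits a demethylase to its targets, was at 11.5 and 8.88 RPKM in WT and at 6.15 and 4.08 RPKM in the knockout. Both knockout libraries were lower, and the log2 fold change of -1.0 (SE 0.31, 95% interval -1.72 to -0.28, unadjusted p = 0.0127, adjusted p = 0.372 by limma) ran from -1.29 to -0.71 when one library was left out, with the call lost without WT replicate 1 (unadjusted p = 0.139 by limma). The ratio of Rbpj to L3mbtl3 RPKM was 1.54 and 1.75 in WT and 3.01 and 3.75 in the knockout. Ctbp1, the most abundant corepressor, was at 70.8 and 72.7 RPKM in WT and 68.4 and 92.2 RPKM in the knockout.

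Of 14 further genes grouped as targets, 8 were listed and 2 passed (25%, against 10.1% of all genes), in opposite directions. Hes6, a Hes-family factor that antagonizes Hes1, was grouped here by family and was not shown to respond to Notch. It was listed at 14.0 and 12.6 RPKM in WT and at 6.48 and 9.36 RPKM in the knockout, both lower (log2 fold change -0.77, SE 0.26, unadjusted p = 0.0214, adjusted p = 0.424 by limma). Without knockout replicate 1 it was -0.50 and did not pass (unadjusted p = 0.0572 by limma), and without knockout replicate 2 it was -1.03; the call was also lost without either WT library (unadjusted p = 0.149 and 0.0852 by limma). Bcl11b, the T-lineage commitment factor, was at 0.555 and 0.647 RPKM in WT and at 5.23 and 1.17 RPKM in the knockout. It reached the 1 RPKM needed for listing only in the knockout libraries, which favours this direction. Its log2 fold change of 1.89 (SE 0.77, unadjusted p = 0.0412, adjusted p = 0.477 by limma) rested on the first knockout library, without which it was 0.86 and did not pass. Myc, the most abundant target, was at 87.0 and 81.3 RPKM in WT and 47.3 and 82.7 RPKM in the knockout (log2 fold change -0.43, 95% interval -1.05 to 0.20). The low value came from knockout replicate 1. Without that library the log2 fold change of Myc was -0.023 (unadjusted p = 0.902), without knockout replicate 2 it was -0.83 (unadjusted p = 0.0012, adjusted p = 0.0307), and with the replicate block its unadjusted p was 0.0482, all by limma. Nrarp, a feedback inhibitor that Notch induces, named after its values were seen, was at 3.19 and 3.33 RPKM in WT and 2.80 and 3.37 RPKM in the knockout.

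**Figure D3:**
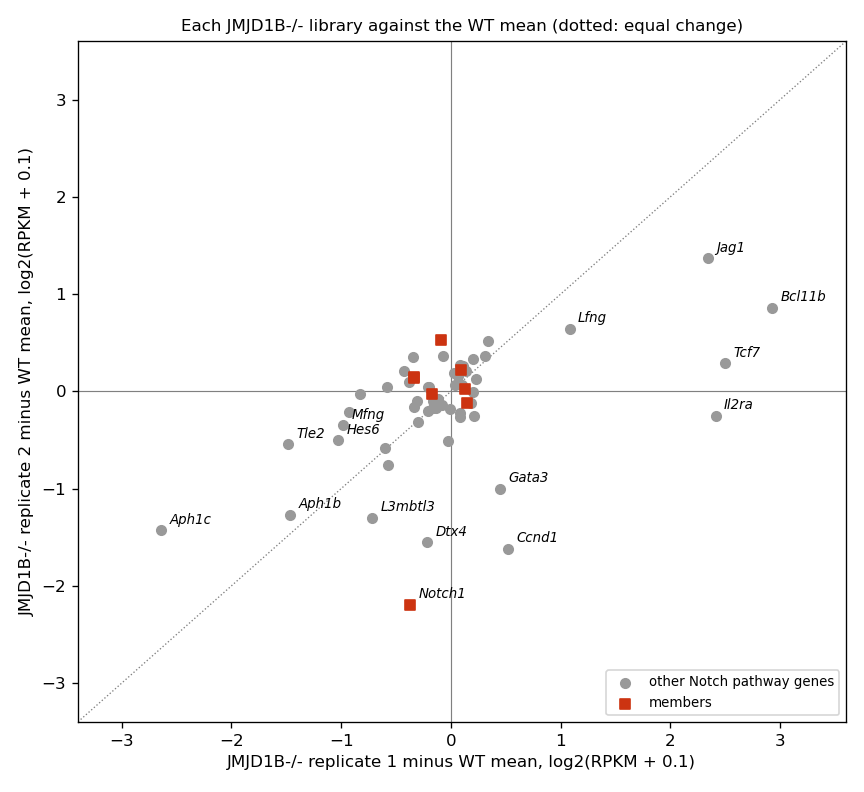
Log2(RPKM + 0.1) in JMJD1B-/- replicate 1 (horizontal axis) and replicate 2 (vertical axis), each minus the log2 of the WT mean, for the members (squares) and the other tested Notch pathway genes (circles), with a dotted line of equal change. Notch1 sits low for replicate 2, at 20.9% of the WT mean against 77.0% for replicate 1, and Bcl11b, Tcf7 and Il2ra sit to the right, with 5.23, 8.67 and 3.25 RPKM in replicate 1 against 1.17, 1.80 and 0.429 in replicate 2.

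The low Notch1 and the high T-lineage targets thus came from different knockout libraries. Tcf7, a T-lineage factor, was listed at 1.43 and 1.48 RPKM in WT and at 8.67 and 1.80 RPKM in the knockout libraries. Il2ra, the interleukin-2 receptor alpha chain, was at 0.262, 0.796, 3.25 and 0.429 RPKM in the same order. Of these 2 genes, Il2ra reached the 1 RPKM needed for listing only in JMJD1B-/- replicate 1. Both were named after their values were seen, and neither passed the test (unadjusted p = 0.0828 and 0.278 by limma). Both were called without JMJD1B-/- replicate 2, and Tcf7 also with the replicate block. T and NK markers moved with them. The 12 genes of that list, all listed and none at 0, summed to 62.1 and 65.3 RPKM in WT and to 116 and 48.9 RPKM in JMJD1B-/- replicates 1 and 2, and 10 of the 12 were highest in JMJD1B-/- replicate 1. Cd3e was at 1.13, 1.4, 7.98 and 2.32 RPKM and Cd3g at 0.444, 0.474, 11.7 and 1.66 RPKM. Lat and Nkg7 were not highest there. Lat, at 35.8, 28.1, 16.0 and 25.7 RPKM, and Nkg7, at 14.0, 15.3, 7.19 and 4.84 RPKM, made up most of the WT sums. The part of these markers in the levels of Bcl11b, Tcf7, Il2ra, Dtx1 and Notch1 was not tested.

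**Figure D4:**
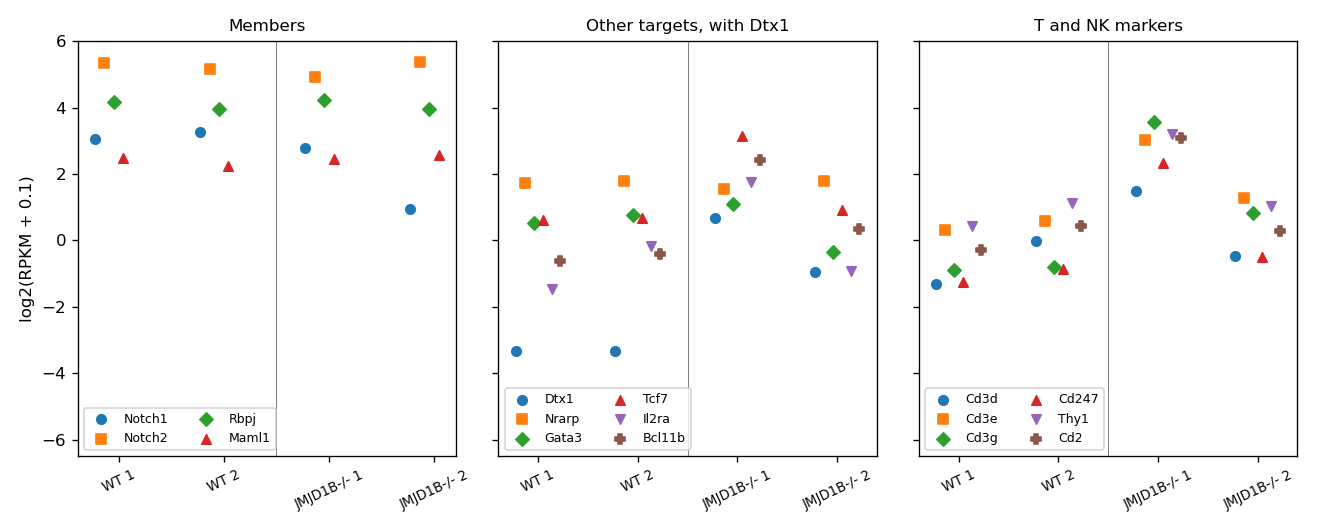
Log2(RPKM + 0.1) by library (horizontal axis) for 4 members, for Notch targets with Dtx1, and for 6 T and NK markers, 1 point per gene and library. JMJD1B-/- replicate 1 is the highest library for these 6 of the 12 T and NK markers (Cd3g at 11.7 RPKM against 0.444 to 1.66 elsewhere) and for Bcl11b, Tcf7 and Il2ra, while Notch1 is lowest in JMJD1B-/- replicate 2.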

How the data were processed

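Poly(A) RNA of HSPCs was sequenced from 4 libraries (TruSeq RNA kit V2). The authors deposited 1 table of RPKM values plus 1 for 12024 entries. The submitters' processing notes name TopHat2, Novoalign and the mm9 build, without their roles; the counting tool is not given in the sources used here. The added 1 was subtracted, and the 84 entries that share 42 names were averaged by name. Every listed gene reached an RPKM of at least 1 in some library. Total counts were unknown; relative depth came from whole-number steps between low RPKM values. Log2(RPKM + 0.1) was compared in limma 3.58.1 (R 4.3.3; lmFit, eBayes with a trend, two-sided) over genes whose RPKM averaged 0.5 or more, with Benjamini-Hochberg adjustment over all genes tested and 95% intervals. Fold changes on this scale understate those of low genes. The study states a two-tailed Student test at 0.05 for its data in general; the gene-by-gene alternative is that kind of test. With 2 libraries per genotype, p-values measure the spread between these samples only. Scripts were tested on simulated data. Same-numbered libraries did not deviate together (correlation -0.0543), so no pairing was used.

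The members and lists were chosen with earlier results of these data known. Named genes are all members, Kdm3b, pathway genes with an unadjusted p under 0.05, the most abundant gene of each role and the 5 genes nearest to Notch1. Others are said to be named after their values were seen. Marker genes are from fixed lists. Alternatives changed the pseudocount, filter, scaling, variance model, handling of repeated names, replicate block and libraries used. Chromatin libraries were not analysed here. Tables were handled in Python 3.11.15 (pandas 2.3.3, numpy 2.4.6) and plots in matplotlib 3.10.9.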

Additional observations from a re-analysis of the deposited data

How the results depend on the processing

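Over 14 alternatives, the direction and side of the unadjusted threshold held in 301 of 363 values of the 26 genes named by the rule, with 38 weaker, 11 stronger and 13 reversed. One member, Notch1, was called with a pseudocount of 1 (1 member called), without the filter on low values (1) and with the replicate block (1); with the block its unadjusted p was 0.00578 and its adjusted p 0.133 by limma, and calls over all genes after adjustment went from 5 to 256 (914 lower and 571 higher at the unadjusted threshold). Labels share only replicate numbers, so the block is no evidence of pairing. The unadjusted p of Notch1 was 0.0888 with median-ratio scaling, 0.101 with quantile normalization, 0.112 in limma without a trend, which called 8 other pathway genes, and 0.298 in a gene-by-gene test; these 2 last settings called 0 genes after adjustment. Of the 5 pathway genes named for an unadjusted p under 0.05, 4 lost their call in the gene-by-gene test (unadjusted p = 0.0586 for Lfng, 0.101 for L3mbtl3, 0.107 for Hes6 and 0.21 for Bcl11b). Bcl11b was also lost with median-ratio scaling (0.0593) and without a trend (0.0534), and Maml3 with the block (0.0622). Quantile normalization called 714 genes lower and 671 higher, 51.6% lower against 62.4%.

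Leaving out 1 library gave 177 to 1819 genes lower and 123 to 1258 higher, 0 to 2 members (Notch1 and Adam10 without JMJD1B-/- replicate 1) and 0 to 14 other pathway genes; the spread then rests on 1 pair, and the lone library is assumed to vary alike. The median over all genes moved to 0.086 without JMJD1B-/- replicate 1 and to -0.10 without replicate 2. Log2 fold changes that reversed ran from -0.33 to 0.14 for Notch2, -0.12 to 0.16 for Rbpj, -0.33 to 0.16 for Dtx3, -0.084 to 0.53 for Adam10, -0.094 to 0.28 for Adam17, -0.23 to 0.026 for Ncstn, -0.48 to 0.39 for Psenen, -0.58 to 0.05 for Mib1, -0.20 to 0.048 for Snw1 and -0.069 to 0.36 for Ctbp1. The cause was not tested.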
